A study of Mus musculus with 4 samples.

Results

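Adhesion G protein-coupled receptors (GPCRs) are described here in RNA of mouse colon epithelium, with Adgrg1 as the leading gene. The 9 members, Adgrg1, Adgrg2, Adgrg6, Adgrg7, Adgrl1, Adgrl2, Adgra3, Adgre5 and Adgrf1, were chosen by family after Adgrg1 had stood among the smallest p values of the comparison below, and for each gene the transcript with the highest mean over the libraries was taken. They are 9 of 25796 genes and hold 127 of 87526 RefSeq transcripts in the table. The table lists 19 other adhesion GPCR genes, which serve as the comparison. Differences of the members between the labelled groups are therefore given as a description with no test of their own, and the authors' q-values for them are quoted in the same way.

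Epithelial cells were released from colons of mice with a chelating buffer, and their total RNA was sequenced as the input of an experiment that enriches RNA carrying N6-methyladenosine. There were 4 input libraries, 2 of the genotype labelled WT and 2 of the genotype labelled Ythdf1 KO, and the immunoprecipitated libraries were not analysed here. Strain, age, sex and the altered part of Ythdf1 are not given in the labels, and they do not say whether replicate libraries are of different mice. The p-values therefore reflect the spread among these libraries alone, and that spread may be technical. Values are the authors' normalised read counts, in which 1 read was worth 0.827 to 1.13. Depth over the most abundant transcripts was 21686140 and 24576164 reads in WT and 25936859 and 30951138 where the label was Ythdf1 KO. Both libraries of the latter label were thus deeper than both WT libraries.

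The RNA level of the targeted gene did not bear out the labels, and with the altered part of Ythdf1 not given it cannot settle them. Ythdf1, which encodes a cytoplasmic reader of N6-methyladenosine, had 1088 and 775 normalised reads in WT 1 and WT 2, against 1752 and 1737 where the label was Ythdf1 KO. It was higher there, with a log2 difference of 0.92 ± 0.28 (SE), close in size to that of Adgrg1 given below. Whether the labels were exchanged was not tested. Each direction below follows the labels, with the second pair called KO-labelled libraries. Markers of epithelium were present in every library, with sums of 273790 to 335201 over 8 genes, of which 2 lay above and 2 (Krt20 and Cdx2) below both WT libraries in both KO-labelled libraries. Markers of colonocytes summed to 227779 and 246501 in WT and to 184681 and 152062 in the others, with 2 of 4 genes (Car1 and Ceacam1) below and 0 above. Car1 and Ceacam1 made up most of each sum. Slc26a3 (18713 and 15165 in WT against 13732 and 23838) and Aqp8 (5017 and 5396 against 6071 and 5152) overlapped. The part of these epithelial and colonocyte markers in the receptors' levels was not tested. Markers of leukocytes summed to 2031 and 1695 in WT and to 1509 and 606 in the others, over 14 of 16 genes listed. Of these, 5 lay below both WT libraries, 0 above and 9 overlapped, where 21.4% of all 23116 genes tested lay below and 14.3% above. Cd4, Lyz2 and Klrb1c, markers of T cells, myeloid cells and natural killer cells, were at 0 in both KO-labelled libraries, while Cd8a, Gzmb, Cd68 and Csf1r, of the same kinds of cell, were higher in Ythdf1 KO 1 than in either WT library. In bulk RNA, fewer cells of a type and less RNA per cell cannot be told apart.

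Adhesion GPCRs join a long extracellular region to membrane-spanning helices. Many cut themselves at a site next to the membrane, and the stub that is left at the new end can act as a tethered agonist when a ligand pulls the outer part away. They couple to G proteins and are known for sensing neighbouring cells and matrix. Adgrg1 binds collagen III and transglutaminase and signals through the Gna12 and Gna13 class, with known roles in brain development, myelination and natural killer cells.

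The Adgrg1 gene lies on mm10 chromosome 8 (94974756 to 95014208, plus strand), and the table lists 19 isoforms with 17 start sites. RefSeq gives promoter windows for 2 of these starts, those of transcript variant 1 (NM_001198894.1) and transcript variant 2 (NM_018882.3). They are shown because isoforms from these starts differed in how reads were shared between the labelled groups, as given further on. Each is the 250 bases before the start, 5′ to 3′ on the plus strand (RefSeq, GRCm38.p6), at chr8:94976859-94977108 and chr8:94984149-94984398. Capitals mark the letters TGANTCA (N is any base), a pattern that includes the core that AP-1 factors bind and is wider than it.
variant 1: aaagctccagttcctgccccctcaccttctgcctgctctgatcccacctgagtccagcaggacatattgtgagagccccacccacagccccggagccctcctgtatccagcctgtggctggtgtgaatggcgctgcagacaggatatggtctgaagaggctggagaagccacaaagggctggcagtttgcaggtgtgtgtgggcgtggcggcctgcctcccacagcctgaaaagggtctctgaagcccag
variant 2: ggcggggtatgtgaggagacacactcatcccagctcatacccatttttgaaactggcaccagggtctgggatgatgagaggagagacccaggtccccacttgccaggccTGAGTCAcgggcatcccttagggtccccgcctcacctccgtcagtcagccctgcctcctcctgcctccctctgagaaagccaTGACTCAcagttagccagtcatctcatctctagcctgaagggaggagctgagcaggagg
The window of variant 2 held TGANTCA at 2 places, beginning 141 and 59 bases before the start, and that of variant 1 held none. TGANTCA reads the same on both strands, so each place was counted once. Among all 32851 RefSeq windows of this length, 6.75% held it at least once and 0.338% at 2 or more places. This motif was picked after the sequences had been seen, from 6 short strings looked at. Neither window held TATAAA (12.4% of all windows), CCAAT (33.8%) or GGGCGG (32.7%), each searched on both strands. Both had similar base composition, at 60.8% and 59.2% G and C, within the upper part of the range of all windows (median 52.4%, quartiles 45.2% and 61.2%). Windows were given for 8 of the 9 members, and none of the other 7 windows held TGANTCA. A match describes letters, not a bound site.

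Adgrg1 had the same order in every isoform, with both KO-labelled libraries above both WT libraries. Its most abundant transcript (XM_006530691.3, gene ID 14766, 94992911 to 95014146) gave 1459 for WT 1 and 1269 for WT 2, against 2777 for Ythdf1 KO 1 and 2366 for Ythdf1 KO 2. The gap between the groups was wider than the gap between the libraries of either group. Means were 1364 ± 134 for WT and 2571 ± 291 for KO-labelled libraries (SD over 2 libraries each), a ratio of 1.89, and the log2 difference was 0.91 ± 0.23 (SE). Leaving out each library in turn gave log2 differences of 0.80 to 1.03. Over the 19 isoforms the ratio ran from 1.89 to 2.03.

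**Figure D1:**
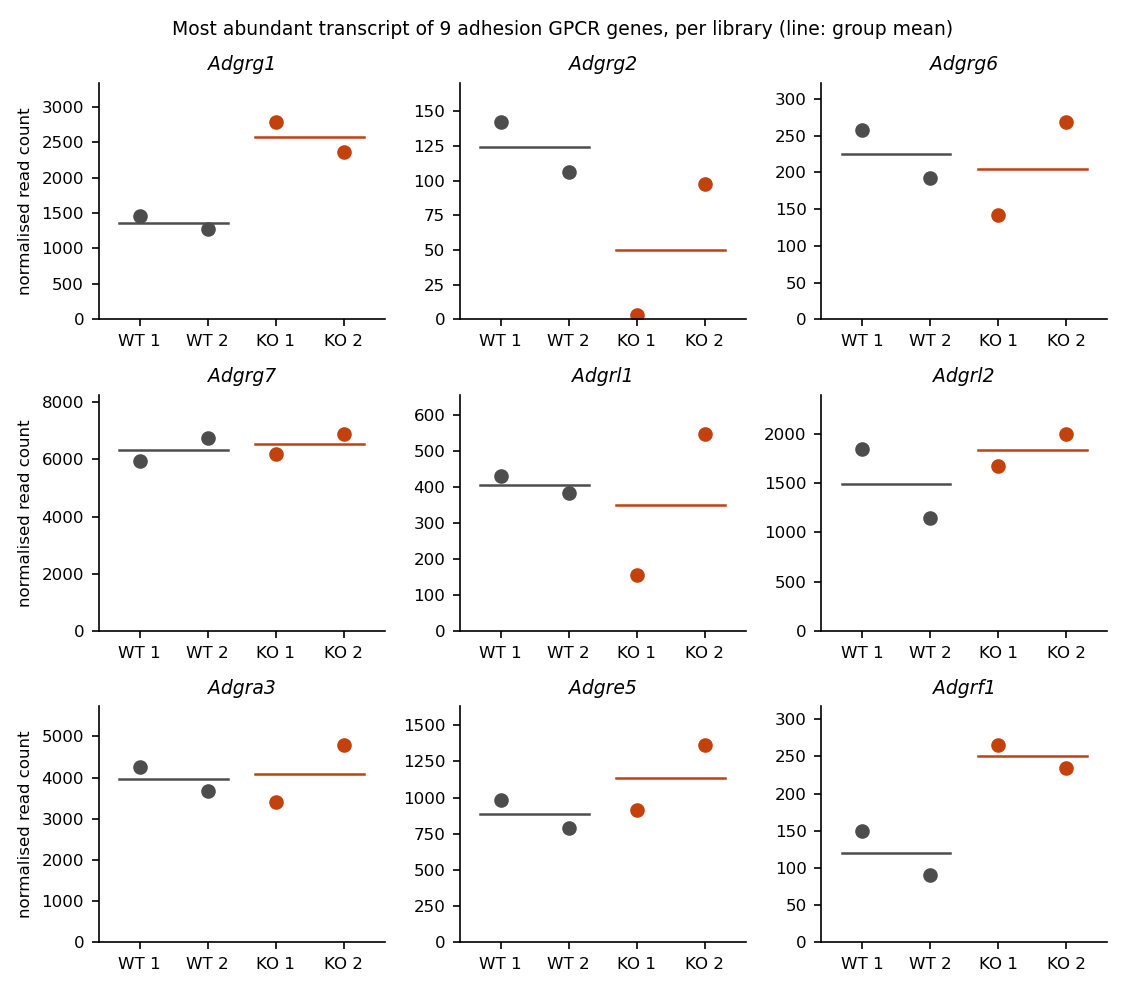
Normalised read count (y axis, linear from 0) of the most abundant transcript of each of the 9 genes in the 4 libraries (x axis), with points for libraries and lines for group means, n = 2 per group. Adgrg1 and Adgrf1 lie higher in both KO-labelled libraries, Adgrg2 lies at 2.91 in Ythdf1 KO 1, and the groups of the remaining 6 genes overlap.

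Isoforms of Adgrg1 each count the reads they share, so nearly all reads were common to them. The lowest isoform value was shared by 9 isoforms and amounted to 1147 reads for WT 1 and 1257 for WT 2, against 2864 for Ythdf1 KO 1 and 2851 for Ythdf1 KO 2. As normalised counts these were 1293 and 1269 against 2777 and 2358, with means of 1281 ± 16.8 and 2567 ± 296 (SD over 2 libraries each) and a ratio of 2.00. The WT libraries lay closer together here than on the most abundant transcript. That transcript, variant X11, was the highest because it held 147 further reads in WT 1, where WT 2 and Ythdf1 KO 1 held 0 and Ythdf1 KO 2 held 9.

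The reads that an isoform held beyond the lowest one differed between the starts. The table lists spans and not exons, so which exon holds these reads was not resolved, and this reading of isoforms was chosen after their values were seen. Variant 2 held 0 such reads in WT 1 and 1 in WT 2, against 55 in Ythdf1 KO 1 and 30 in Ythdf1 KO 2. As shares of its reads these were 1.88% (95% exact Clopper-Pearson interval 1.42 to 2.45) and 1.04% (0.704 to 1.48) in the KO-labelled libraries. In WT 2 the share was 0.0795% (0.00201 to 0.442), and 0 of 1147 reads in WT 1 allows a share of up to 0.262% by a limit of 3 reads, or 0.321% by the exact interval. Variant X7, which starts just upstream of variant 2, held the same reads as variant 2 in all 4 libraries.

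Variants 1 and X6, which start within a few bases of each other, went the other way. Variant X6 held 17 reads beyond the lowest isoform in WT 1 and 22 in WT 2, against 1 in Ythdf1 KO 1 and 13 in Ythdf1 KO 2. Its shares were 1.46% (0.853 to 2.33) and 1.72% (1.08 to 2.59) in WT, and 0.0349% (0.000884 to 0.194) and 0.454% (0.242 to 0.775) in the other group. Variant 1 held the same extra reads as X6 in 3 libraries and 81 in WT 1. The libraries of the groups did not overlap in these shares at either start, and with 2 libraries a group they were not tested. Reads without molecular identifiers are not independent molecules, so the intervals cover counting error only.

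Other isoforms of Adgrg1 held extra reads mostly in WT 1. Variant X17, from a start 10.8 kb after the first, held 61 in WT 1 and 0 in the other libraries. Variants X3 and X4 each held 29 in WT 1 and 5 in Ythdf1 KO 1, with 0 in the remaining libraries. Variant X2 held 29 in WT 1 and 0 elsewhere, and variant X16 held 9 in Ythdf1 KO 2 alone. Neither isoform from the most upstream starts of the gene held reads above the lowest value in any library. Such blocks of reads in 1 library move an isoform by up to 11.4% of its reads (X11 in WT 1) and leave the order of the groups as it was.

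**Figure D2:**
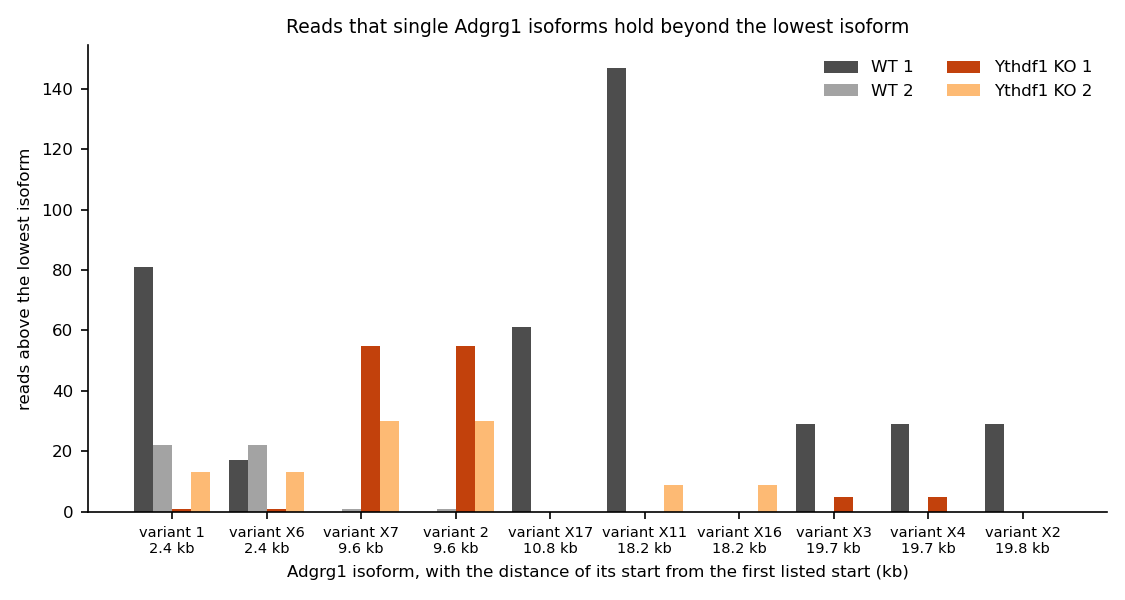
Reads (y axis, linear from 0) that 10 Adgrg1 isoforms hold beyond the lowest isoform, ordered by the distance of their start from the first listed start (x axis, kb), with 1 bar per library. Extra reads of variants 2 and X7 come almost wholly from the KO-labelled libraries (55 and 30), and those of variant X11 from WT 1 (147).

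Adgrf1, a receptor for the lipid mediator synaptamide, was the other member with both KO-labelled libraries above both WT libraries, at low values. Its most abundant transcript (XM_006525120.3, chromosome 17, 43270273 to 43325876) gave 150 in WT 1 and 90.9 in WT 2, against 265 in Ythdf1 KO 1 and 235 in Ythdf1 KO 2. The libraries of each group lay closer together than the groups did. The means were 120 ± 41.8 and 250 ± 21 (SD over 2 libraries each), with a log2 difference of 1.09 ± 0.66 (SE). All 4 isoforms kept the groups apart, with ratios from 1.86 to 2.78, but they share reads and are not separate observations. The higher ratio belonged to NM_133776.2, which ends upstream (43324406) and stood at 64.2 and 88.8 against 191 and 234. In WT 1 the most abundant isoform held 133 reads and NM_133776.2 only 57, whereas in Ythdf1 KO 2 they held 284 and 283.

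Adgrg2, known for fluid uptake in the male excurrent ducts, was the member with both KO-labelled libraries below both WT libraries. It stood at 142 and 106 in WT, against 2.91 (3 reads) in Ythdf1 KO 1 and 97.6 in Ythdf1 KO 2. Ythdf1 KO 1 alone lay far below, and Ythdf1 KO 2 was close to WT 2. The log2 difference of -2.66 ± 1.95 (SE) was -0.33 without Ythdf1 KO 1. Of its 22 isoforms, 11 stood at 24.2 in WT 2 in place of 106, and in those the groups overlapped.

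Among 9 members, then, 2 had both KO-labelled libraries above both WT libraries and 1 had both below, where 14.3% and 21.4% of the 23116 genes tested did so. Adgrg1 alone, 1 of 9 members, had a higher level with a q-value under 0.05 in the authors' deposited table, where 1.38% of all genes did. All 19 isoforms of Adgrg1 had a q-value under 0.05 in the authors' deposited table, but they share nearly all reads and so repeat 1 result. In limma-trend 0 of the 23116 genes tested passed a Benjamini-Hochberg adjusted p of 0.05, so none of the members did. The members' median log2 difference was 0.05, beside -0.09 for all genes tested. Since this contrast led to the choice of Adgrg1, these counts describe it and carry no weight of their own.

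The remaining G-family members overlapped between the groups. Adgrg7, an orphan receptor known from the intestinal epithelium, stood at 5933 and 6748 in WT, against 6195 and 6889 in the KO-labelled libraries. Its libraries interleaved, and the log2 difference was 0.05 ± 0.16 (SE), which turned to -0.06 with quantile normalisation. Its shorter isoform (XM_011245899.1) held 3457 and 3796 against 3425 and 4254, again interleaved. Adgrg6, a receptor for collagen IV, laminin and prion protein that raises cAMP in Schwann cells, stood at 258 and 193 against 143 and 268. Ythdf1 KO 1 was the lowest library and Ythdf1 KO 2 the highest. Of its 7 isoforms, 1 lay below in both KO-labelled libraries and 6 overlapped.

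The latrophilins Adgrl1 and Adgrl2 bind teneurins and FLRT proteins on facing cells. Adgrl1 stood at 429 and 383 in WT, against 154 in Ythdf1 KO 1 and 547 in Ythdf1 KO 2. The latter libraries bracketed the WT libraries, and the log2 difference of -0.48 ± 0.68 (SE) turned to 0.43 without Ythdf1 KO 1. All 14 isoforms overlapped, with ratios from 0.629 to 0.976. Adgrl2 stood at 1851 and 1144 in WT, against 1677 and 2002 in the KO-labelled libraries. WT 2 was the low library, and without it the log2 difference of 0.33 ± 0.30 (SE) was -0.01. Of 51 isoforms, 49 overlapped, and 11 shared the highest value.

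Adgra3 and Adgre5 also overlapped. Adgra3, an orphan receptor that marks spermatogonial stem cells, has 1 listed transcript and stood at 4255 and 3681 against 3410 and 4780. The KO-labelled libraries bracketed the WT libraries, and the log2 difference was 0.03 ± 0.22 (SE), or -0.05 with quantile normalisation. Adgre5, a receptor of leukocytes and epithelia that binds Cd55 and is known for splice forms with different numbers of EGF-like repeats, stood at 986 and 792 against 911 and 1361. Ythdf1 KO 2 was the high library, and the log2 difference of 0.33 ± 0.33 (SE) was 0.04 without it. Of its 7 isoforms, 2 had both KO-labelled libraries above both WT libraries. The leukocyte markers given above were lowest in Ythdf1 KO 2, where Adgre5 was highest, and their part in its level was not tested. Leaving out each library in turn, the differences of Adgra3, Adgrg6, Adgrg7, Adgrl1 and Adgrl2 changed sign at least once.

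Among the 18 of 19 other adhesion GPCR genes that could be tested, 2 lay above and 3 below the WT libraries in both KO-labelled libraries, beside 14.3% and 21.4% of all genes. Their median log2 difference was -0.12. Celsr1 and Celsr2, atypical cadherins of planar cell polarity, were above. Celsr1 stood at 6947 and 7139 in WT, against 7523 and 9761 in the other group, and Celsr2 at 733 and 579 against 860 and 807. Both differences, 0.28 ± 0.17 and 0.36 ± 0.32 on the log2 scale (SE), were within about 2 SE. Celsr3 overlapped, at 295 and 353 against 325 and 538.

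Those below were Adgre1, Adgrl4 and Adgrv1. Adgre1, a macrophage receptor, stood at 104 and 29.3 in WT, against 0 and 24.8 in the KO-labelled libraries. It was also 1 of the 5 leukocyte markers counted below both WT libraries. Adgrl4, a receptor of endothelium, stood at 76.6 and 91.9 against 3.88 and 19.9. Markers of endothelium summed to 819 and 941 in WT and to 796 and 447 in the other group over 4 genes, and their part in the level of Adgrl4 was not tested. Adgrv1, a very large receptor of hair cells, stood at 220 and 523 against 197 in both others.

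The neighbours of Adgrg1 on chromosome 8 did not share its order. Adgrg5 ends 31.5 kb before Adgrg1 and stood at 338 and 52.5 in WT, against 84.3 and 257 in the KO-labelled libraries. Adgrg3 begins 2.9 kb after Adgrg1 and stood at 0 and 53.5 against 203 and 29.8. In both genes the libraries of each group lay far apart and the groups overlapped. Adgrf4 was counted in WT 1 alone, at 75.5, and was listed at 0 in the other libraries. The brain receptors Adgrb1, Adgrb2 and Adgrb3, the vascular receptor Adgra2, and Adgrf5, Adgrl3, Adgrd1, Adgrf2, Adgrf3 and Adgra1 overlapped too. Among these, Adgrb1 gave 640 and 250 in WT against 399 and 358, Adgra2 gave 333 and 530 against 166 and 351, and Adgrf5 gave 470 and 140 against 161 and 85.2. Their log2 differences ran from -2.60 ± 2.83 (SE) for Adgrb3 to 2.19 ± 2.02 for Adgrf2, each resting on 1 library near 0. No value is given for Adgre4 and Adgrg4, which were not among the symbols of the table.

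**Figure D3:**
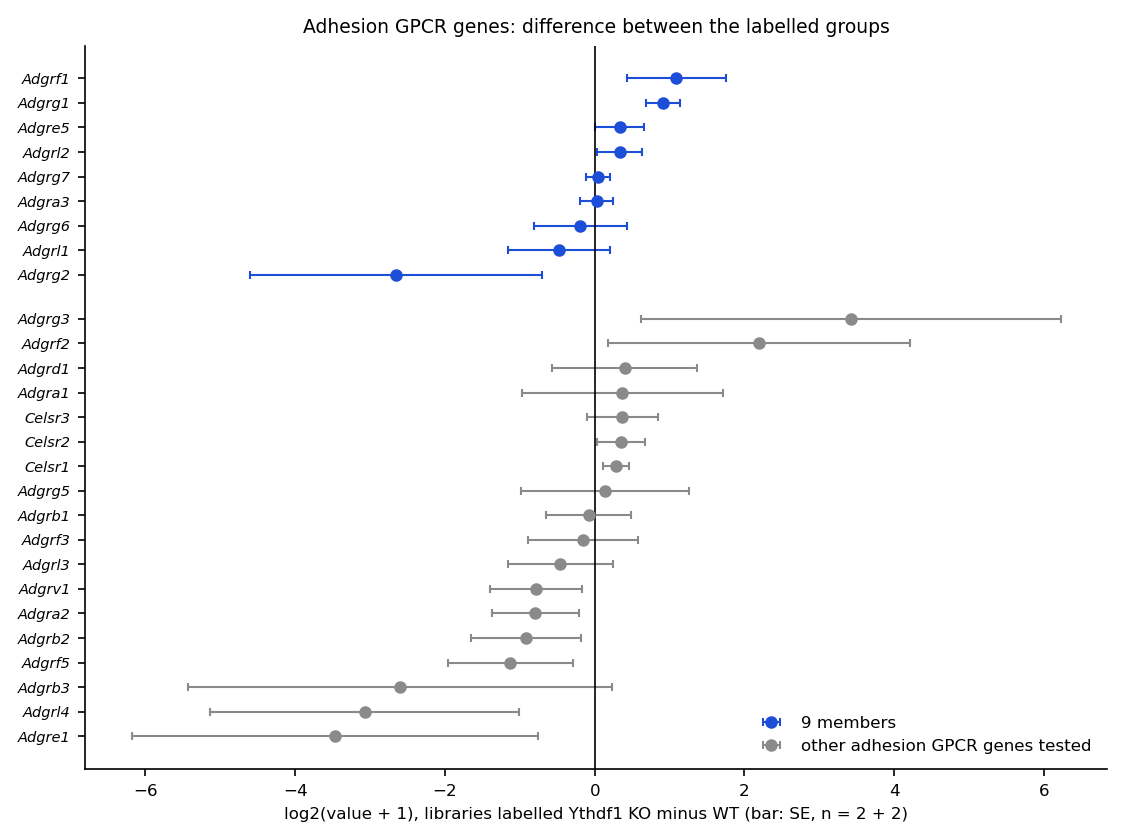
Difference on the log2(value + 1) scale between the KO-labelled libraries and WT (x axis) for the 9 members and 18 other adhesion GPCR genes (y axis), with bars for the SE of limma-trend, n = 2 per group. Adgrg1 lies at 0.91, and Adgrg7, Celsr1 and Adgra3 have narrower bars than it. Genes with low counts, such as Adgrg3, have the widest bars.

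Genes that bind or transmit for these receptors gave no call. Of 62 genes in 5 lists, all 62 were listed and tested, 0 passed limma-trend at a Benjamini-Hochberg adjusted p of 0.05 in either direction (0% of all genes did), 2 had an unadjusted p under 0.05 (5.44% of all genes did), and 0 had a q-value under 0.05 in the authors' deposited table. Both KO-labelled libraries lay above both WT libraries for 16 genes and below for 11, where 14.3% and 21.4% of all genes did so. The median log2 difference of the 62 was 0.08.

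Of 21 ligands and binding partners, 6 lay above and 4 below (14.3% and 21.4% of all genes), with a median of -0.07. The Adgrg1 ligand Col3a1 stood at 189 and 405 in WT, against 411 and 6.62 in the KO-labelled libraries, and Tgm2 at 879 and 713 against 882 and 647. Neither kept the groups apart. Cd81, a tetraspanin found in complex with Adgrg1, averaged 1199 ± 244 and 1568 ± 204 (SD over 2 libraries each), and Cd55, the Adgre5 ligand, had 875 ± 190 and 1232 ± 272. Prnp, the prion protein gene and the most-read gene of this list (counts are not corrected for length), had 10677 ± 73.7 and 8717 ± 1824. Nrxn2, a neurexin, had 321 ± 44.3 and 112 ± 11.5, with a log2 difference of -1.51 ± 0.60 (SE), and was 1 of the 2 genes with an unadjusted p under 0.05 (adjusted p = 0.759 in limma-trend). Also above were Cd55b, Tenm3 and Flrt1, with log2 differences of 1.89 ± 2.02, 0.81 ± 0.64 and 0.26 ± 0.40 (SE). The others below were the latrophilin ligand Tenm2, at -0.76 ± 0.54, and Thy1, a surface protein of leukocytes and neurons, at 108 and 45.4 against 9.69 and 0.

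Of 13 G protein alpha subunits, 3 lay above and 3 below (14.3% and 21.4% of all genes), with a median of 0.11. Gnas, the stimulatory subunit and the most-read of the list, averaged 11570 ± 634 and 15010 ± 2209 (SD over 2 libraries each), a log2 difference of 0.37 ± 0.15 (SE), and was the other gene with an unadjusted p under 0.05 (adjusted p = 0.759 in limma-trend). Gna12 and Gna13, through which Adgrg1 signals, overlapped. Gna13 stood at 3689 and 4262 against 4509 and 4082, and Gna12 at 438 and 842 against 558 and 834. Gna11 and Gnaq lay above by 0.11 and 0.13 on the log2 scale, and Gnai3, Gnal and Gnaz below by 0.33, 1.09 and 1.51.

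Of 13 adenylyl cyclases and phospholipases, 3 lay above and 1 below (14.3% and 21.4% of all genes). Plcb3, a phospholipase and the most-read of the list, averaged 13815 ± 240 and 16837 ± 1500 (SD over 2 libraries each). Adcy3 and Adcy4 were the others above, by 0.69 and 0.41 on the log2 scale, and Adcy2 was below, at 134 ± 27 and 37.7 ± 12.2. Of 7 arrestins and receptor kinases, 1 lay above and 2 below (14.3% and 21.4% of all genes). Grk6 lay above, at 1795 ± 92.2 and 2194 ± 368. Grk3 and Grk5 lay below, Grk3 at 469 and 418 against 302 and 147, and Grk5 at 472 ± 63.8 and 238 ± 88.2, and Grk2, the most-read of the list, overlapped at 3772 ± 696 and 3332 ± 255.

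**Figure D4:**
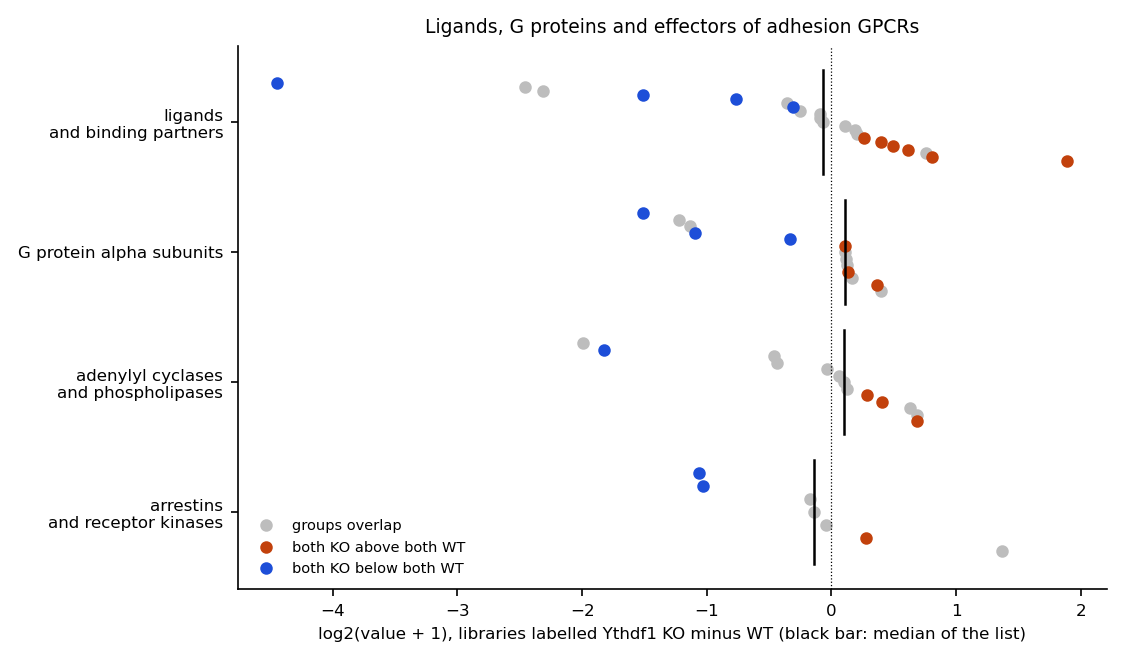
Difference on the log2(value + 1) scale between the KO-labelled libraries and WT (x axis) for the genes of 4 lists by role (y axis), with 1 point per gene, colour for whether the 2 groups overlap, and a black bar for the median of the list. The medians lie between -0.14 and 0.11, and the widest differences are among ligands with low counts.

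By a rule of likeness, the 5 genes whose level followed that of Adgrg1 most closely over the 4 libraries were Irgm1, Ppp4r2, Rps6kc1, Rai1 and Nabp2, out of 7430 genes whose mean reached 500. The measure was the root mean square difference of centred log2(value + 1), which was 0.0128 for Irgm1, an interferon-induced GTPase, and 0.0494 to 0.0745 for the others. Irgm1 stood at 760 and 668 in WT, against 1478 and 1260 in the KO-labelled libraries. With 4 libraries, a close match among 7430 genes is a description and carries no test.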

How the data were processed

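Per the labels, total RNA of colon epithelial cells was made into input libraries and sequenced. Per the submitters' processing notes, the build was mm10, and Bowtie2 2.2.5 and SAMtools 1.3.1 are among the tools listed, with no roles given. The counting program and any use of strand are not stated in the labels, so overlapping and antisense genes may not be told apart. The deposited signal of a transcript is a read count over a size factor: in each library 100% of values equalled, within 0.001, a whole number times the lowest value above 0. The authors also deposited a log2 fold change, p-value and q-value per transcript.

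Genes that reached 1 in 2 or more libraries were fitted across all genes with limma-trend 3.58.1 (robust, R 4.3.3) on log2(value + 1), a scale that understates changes of low genes. The threshold was an adjusted p (Benjamini-Hochberg) of 0.05. The fit was tested on simulated data with planted changes larger than that of Adgrg1. This checks the code and does not show which smaller changes could be found here. The unit was handled as normalised values, as planned. Count tests planned as alternatives were not run. Named were all members and other family genes, non-overlapping or highest genes of each list, and the 5 closest patterns. Members and lists were chosen with earlier results of these data known. Some genes of the partner lists, 1 list among them, are counted in the totals and not reported here. Levels were not compared between genes, since transcript lengths were not used here. Symbols were matched directly or by RefSeq gene ID.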

Additional observations from a re-analysis of the deposited data

How the results depend on the processing

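Across all genes, limma-trend called 0 of 23116, while limma without a trend called 524, and leaving out each library in turn gave 0 to 36; with 3 libraries the lone library of a group is assumed to vary like the others. Calls among the 62 partner genes were 0 in the fit as reported and under each of the 12 alternatives run. Leaving out each library in turn moved Adgrg1 between 0.80 and 1.03, Adgrf1 between 0.73 and 1.45 and Adgrg2 between -4.98 and -0.33. With 2 libraries a group, such a change is bounded by the gap between them, so it is no measure of stability. The Adgrg1 value on the lowest isoform, an alternative added after seeing the data, was 1.00. With quantile normalisation the small differences of Adgrg6, Adgrg7 and Adgra3 changed sign (0.01, -0.06 and -0.05). Deviations of libraries with the same replicate number were not correlated over genes (-0.01), which cannot tell whether the libraries were prepared in pairs. With the replicate block 0 genes were called, as without it. edgeR and DESeq2 were planned and not run. Low counts limit what can be said of Adgrg2, with 3 reads in Ythdf1 KO 1, and of Adgrb3, Adgre1, Adgrg3 and Adgrf4, with 0 reads in at least 1 library. These low values were not confined to the libraries of least depth.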
